A study of Homo sapiens with 18 samples.

Results

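ATP-binding cassette (ABC) exporters are membrane proteins that use ATP to move glutathione conjugates, glucuronides, sulfates and many drugs out of cells. The 8 genes described here were taken by name: the multidrug resistance-associated proteins ABCC1, ABCC2, ABCC3, ABCC4 and ABCC5, the breast cancer resistance protein ABCG2, P-glycoprotein (ABCB1) and the porphyrin transporter ABCB6. All 8 were among the 23411 gene symbols counted in each library. In detoxification, a reactive compound is joined to glutathione or glucuronic acid inside the cell, and an exporter then carries the product across the plasma membrane. Several exporter genes are textbook targets of NRF2, the transcription factor that binds antioxidant response elements (AREs) when its inhibitor KEAP1 is modified by oxidants or electrophiles. In the eye, exporters of the retinal pigment epithelium (RPE) limit which drugs and metabolites cross the outer blood-retinal barrier.

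Polyadenylated RNA was sequenced from ARPE-19 cells, an immortalized human RPE line, in 18 libraries, 3 in each of 6 groups. Control cells carried a lentiviral vector with Cas9 and no guide RNA. NRF2 ΔC cells carried Cas9 with a guide against exon 5 of NFE2L2, the NRF2 gene, and had a stop codon in both alleles that removes the C-terminal end of the protein. The line is 1 clone, labelled C1, picked after clonal selection, so a trait of that clone cannot be told apart from the edit. Each line was untreated (water), treated with 1 mM N-acetylcysteine ethyl ester (NACET), a cell-permeable cysteine donor, or treated with 0.2 mM H2O2. The labels disagree on the schedule: the series text gives 8 h of treatment after 40 h in medium with 10% serum, and the sample labels give 2 h after 22 h with 1% serum. No source says that the 3 libraries of a group came from separate cultures, so p-values measure only the spread between these libraries.

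Between 16673306 and 25951154 reads were counted on genes per library. NFE2L2 mRNA was 125 ± 3.92 CPM (TMM-normalized counts scaled to library size, mean ± SD, n = 3) in untreated control cells and 126 ± 2.11 CPM in untreated NRF2 ΔC cells, and a stop codon near the end of the protein does not show in such a count. NQO1, a classic NRF2 target used here as a check, stood at 168, 339 and 182 CPM in untreated control cells and at 15.6, 11.4 and 15.2 CPM in untreated NRF2 ΔC cells. Over all conditions the 9 control libraries ran from 168 to 1215 CPM of NQO1 and the 9 NRF2 ΔC libraries from 11.4 to 22.6 CPM, so each library went with its cell line label, and the treatment labels were not checked in this way. Of 15 RPE markers, 10 reached a mean of 1 CPM, led by KRT8, KRT18, OTX2 and MITF, while the defining visual-cycle genes RPE65 and RLBP1 stayed at 0.0111 and 0.21 CPM on average. The summed level of the RPE markers in control cells was 1377 to 1403 CPM untreated, 1150 to 1303 CPM with NACET and 968 to 1034 CPM with H2O2, lower without overlap under both treatments. In NRF2 ΔC cells it was 1321 to 1450 CPM untreated, 1130 to 1334 CPM with NACET, which overlapped, and 954 to 1061 CPM with H2O2, which did not. KRT8 and KRT18, at means of 544 and 392 CPM, made up most of this sum. Single markers differed: with H2O2, BEST1 was called higher in both lines by the limits given below. BEST1 had a mean of 1.07 CPM and ranged from 0.185 to 3.53 CPM over the libraries. In NRF2 ΔC cells 10 RPE markers passed edgeR's filter on low counts with H2O2 and 9 with NACET. The BEST1 call there may rest on that filter and is not counted as a result about the markers. RDH5 was called lower with H2O2 in control cells, and LRAT and MITF in NRF2 ΔC cells. Of 12 markers of other cell types, 4 reached a mean of 1 CPM (VIM, CD68, COL1A1 and ACTA2), and CRX and CD3E had no read. The sum over the 12 in control cells was 6044 to 7149 CPM untreated, 4802 to 6835 CPM with NACET and 4412 to 5731 CPM with H2O2, the last without overlap. The sum in NRF2 ΔC cells was 6528 to 7083 CPM untreated, 5904 to 6997 CPM with NACET and 5118 to 6531 CPM with H2O2, both overlapping. VIM, at a mean of 5776 CPM, made up most of the sum over the 12. The part of either sum in the exporter results was not tested. In bulk RNA, fewer cells of a type and less RNA per cell cannot be told apart.

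Promoters are shown because the study removed the DNA-binding end of NRF2, and an ARE is where NRF2 binds. RefSeq entries on GRCh38.p14 were given for 6 of the 8 genes, in 11 windows of 250 bases before and 50 after a transcription start; ABCC1 and ABCC3 had no entry in this table. The ARE core was searched on both strands as TGACNNNGC. It was found in 3 of the 11 windows, those of ABCB6, ABCC4 and 1 of the 5 listed starts of ABCG2, against 13.3% of all 35116 windows in the table. Each sequence runs 5′ to 3′ on the gene's strand over 270 bases, to 20 bases past the start, with the ARE core in capitals, and all 4 genes lie on the minus strand. The ABCC5 promoter, which holds no core in this window, is given for contrast.
ABCB6, chr2:219218939-219219208: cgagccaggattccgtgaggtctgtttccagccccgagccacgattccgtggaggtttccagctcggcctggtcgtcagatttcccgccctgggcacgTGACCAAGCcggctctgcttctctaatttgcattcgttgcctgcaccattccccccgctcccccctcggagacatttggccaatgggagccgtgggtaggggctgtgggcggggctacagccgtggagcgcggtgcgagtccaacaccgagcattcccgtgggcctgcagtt
ABCC4, chr13:95301432-95301701: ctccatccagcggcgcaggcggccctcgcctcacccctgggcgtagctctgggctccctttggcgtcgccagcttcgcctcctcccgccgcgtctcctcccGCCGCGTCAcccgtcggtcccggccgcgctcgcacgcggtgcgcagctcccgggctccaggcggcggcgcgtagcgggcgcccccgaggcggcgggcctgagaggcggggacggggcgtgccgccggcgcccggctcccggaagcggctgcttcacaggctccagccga
ABCG2, chr4:88159271-88159540: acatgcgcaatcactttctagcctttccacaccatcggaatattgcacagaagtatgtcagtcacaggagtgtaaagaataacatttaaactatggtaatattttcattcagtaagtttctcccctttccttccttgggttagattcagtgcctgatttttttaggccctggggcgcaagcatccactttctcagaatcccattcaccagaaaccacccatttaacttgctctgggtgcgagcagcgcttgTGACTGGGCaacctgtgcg
ABCC5, chr3:184017865-184018134: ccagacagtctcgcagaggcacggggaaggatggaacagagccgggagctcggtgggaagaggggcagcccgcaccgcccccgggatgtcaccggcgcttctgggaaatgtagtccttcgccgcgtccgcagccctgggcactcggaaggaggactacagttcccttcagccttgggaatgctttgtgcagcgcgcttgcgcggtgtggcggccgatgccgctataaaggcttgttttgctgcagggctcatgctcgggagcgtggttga

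The core of ABCB6, TGACCAAGC, begins 152 bases before the start. The match in ABCC4 lies on the opposite strand, so the capitals GCCGCGTCA are its complement as read on the gene's strand, and it begins 149 bases before the start. The match in ABCG2, TGACTGGGC, begins at base 2 of the transcript from that start, and the other 4 windows of ABCG2 held none. The AP-1 site TGANTCA occurred in 1 of the 11 windows, upstream of ABCB1, and in 7.71% of all windows. The xenobiotic response element core GCGTG was in 36.5% of all windows and the GC box GGGCGG in 45%, so their presence in several exporter windows is common in the table. These are matches of letters and not binding sites.

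The 8 exporters spanned 3 orders of magnitude in mRNA level. Levels were compared between genes as RPKM, here TMM-normalized CPM divided by the kilobases of the gene's merged exons in GENCODE v44 on GRCh37. ABCC1 (chr16:16042995-16237114), which exports glutathione disulfide and leukotriene C4, had the highest mean over the 18 libraries, 22.9 RPKM, with group means from 19.6 to 26.2 RPKM. ABCB6 (chr2:220074494-220083716), ABCC4 (chr13:95672089-95953729) and ABCC5 (chr3:183637722-183735727) followed at 8.32, 6.89 and 5.91 RPKM. ABCC3 (chr17:48712138-48769614), an exporter of glucuronides and bile acids at the basolateral membrane, averaged 1.95 RPKM. ABCG2 (chr4:89011302-89152780) averaged 0.283 RPKM, ABCC2 (chr10:101542397-101612351) 0.0499 RPKM and ABCB1 (chr7:87132333-87342639) 0.0193 RPKM.

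**Figure D1:**
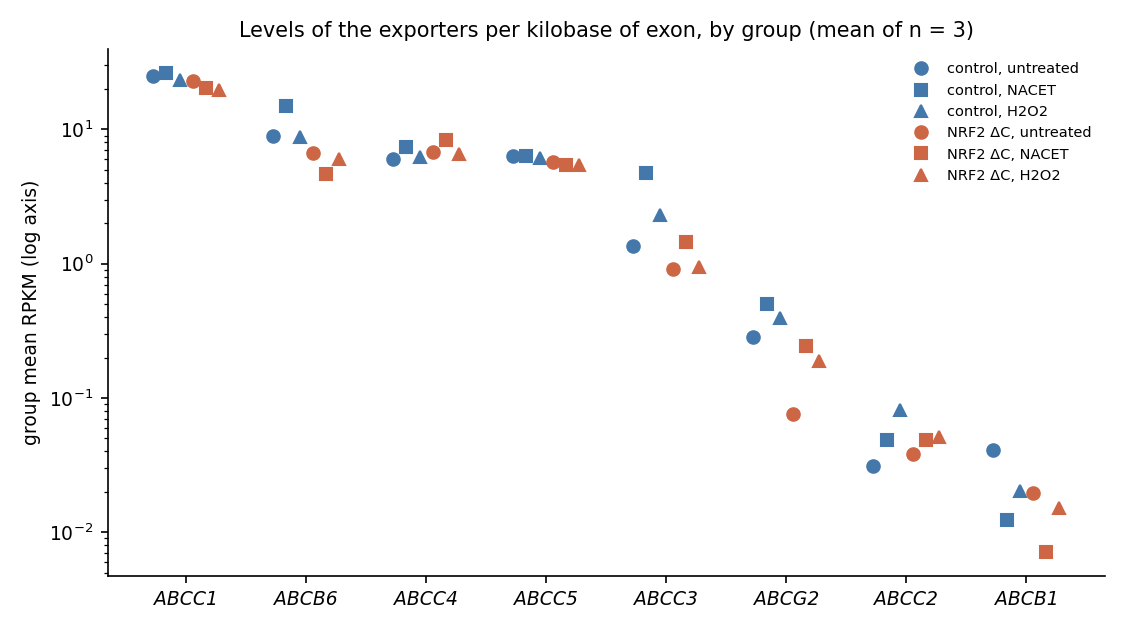
Group mean levels of the 8 exporters in RPKM on a log axis, with blue symbols for control and orange symbols for NRF2 ΔC cells, and circles, squares and triangles for untreated, NACET and H2O2. ABCC1 stayed highest in all 6 groups, between 19.6 and 26.2 RPKM, and ABCC2 and ABCB1 lay below 0.1 RPKM throughout.

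The order of the middle members depended on the group and on the length used. In untreated control cells ABCB6 ran from 7.14 to 10.7 RPKM, above ABCC5 at 5.86 to 6.61 RPKM and ABCC4 at 5.68 to 6.42 RPKM, whose ranges overlapped. In NRF2 ΔC cells with NACET the order was ABCC4 at 7.41 to 9.51 RPKM, ABCC5 at 5 to 6.31 RPKM and ABCB6 at 4.08 to 5.48 RPKM, the last 2 overlapping. Divided by the canonical transcript alone, ABCC5 took place 3 and ABCC4 place 4. ABCB6 shares 2805 of the 2980 exon bases of its canonical transcript with another gene model on the same strand that is not in the count table. Part of its reads could come from that model, which bears on all ABCB6 values here.

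P-glycoprotein and ABCC2, the apical exporter of conjugated bilirubin, were barely counted. ABCB1 had 0 to 10 reads per library, with 14 of the 18 libraries at 3 reads or fewer and 2 at 0, where a count of 0 allows up to 3 reads, or 0.117 to 0.174 CPM. ABCC2 had 5 to 17 reads per library. No comparison kept ABCB1 after edgeR's filter on low counts, and ABCC2 was kept only in comparisons that include H2O2-treated control cells. The other 6 members were tested in all comparisons. In those that include untreated NRF2 ΔC cells, ABCG2 passed the filter only through the other groups.

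**Figure D2:**
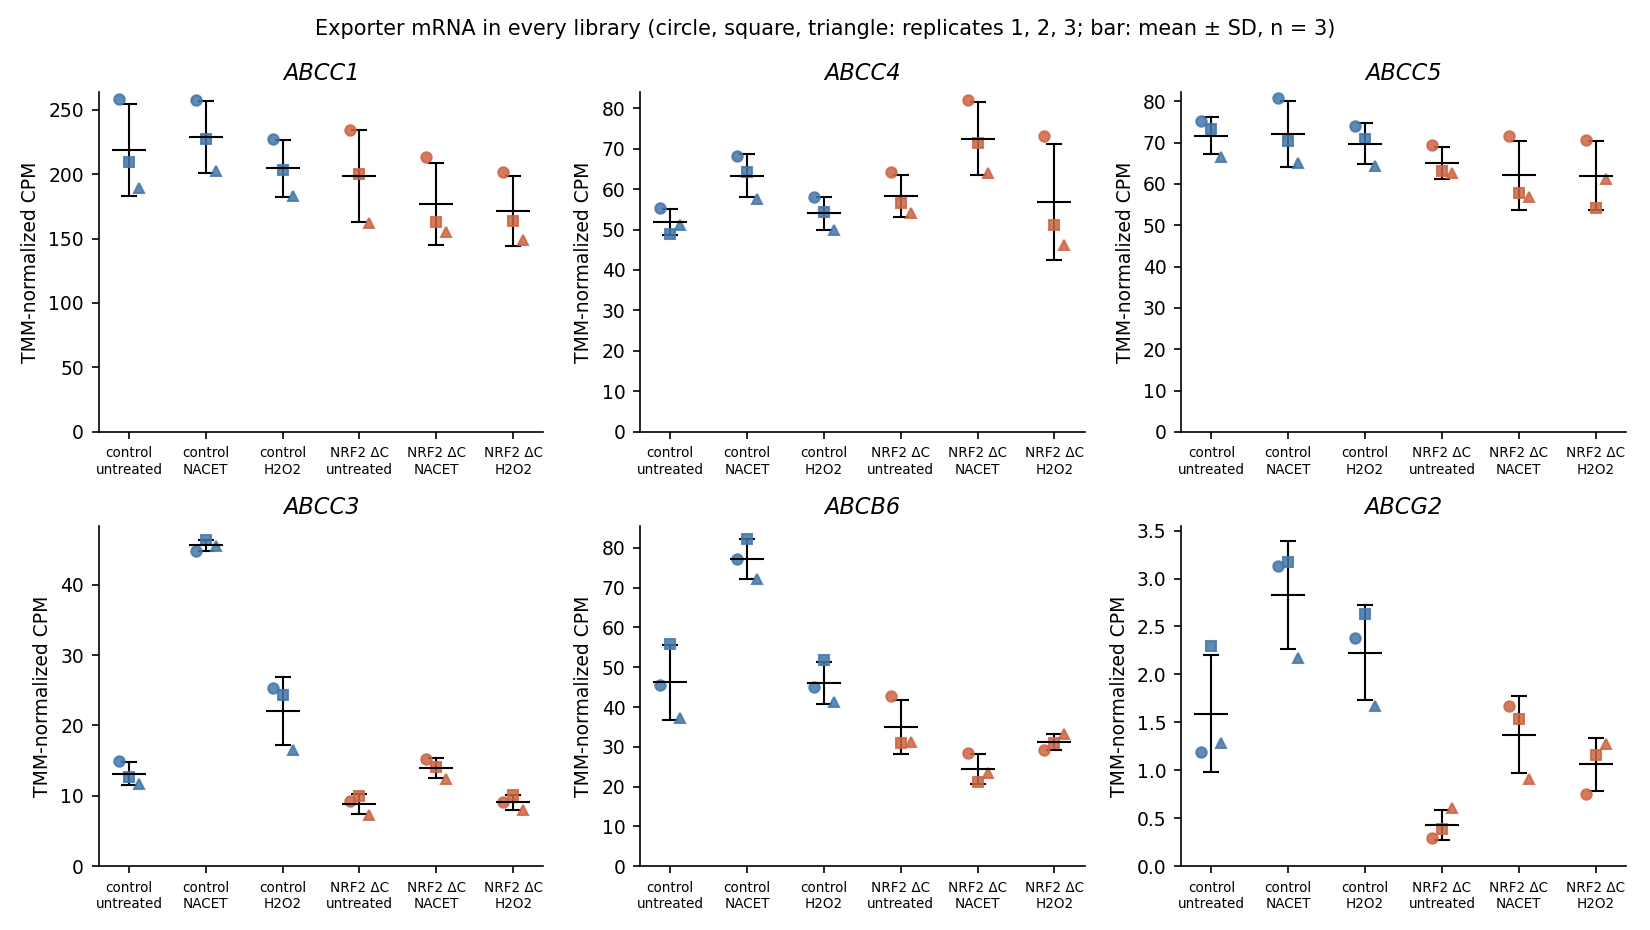
TMM-normalized CPM of the 6 exporters with a mean above 1 CPM in each of the 18 libraries, with blue for control and orange for NRF2 ΔC cells; circles, squares and triangles are replicates 1, 2 and 3 and the bars give mean ± SD (n = 3). ABCC3 with NACET in control cells (44.9 to 46.4 CPM) stood apart from all other groups, and ABCB6 with NACET was highest in control cells (72.2 to 82.4 CPM) and lowest in NRF2 ΔC cells (21.3 to 28.5 CPM).

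ABCC1, ABCC4 and ABCC5 were differentially expressed genes (DEGs) in none of the 9 comparisons of 2 groups, where a DEG had a Benjamini-Hochberg adjusted p under 0.05 over all genes tested (edgeR's quasi-likelihood test) and a log2 change of 0.6 or more, up or down. ABCC1 measured 258, 209 and 189 CPM in untreated control cells, 258, 227 and 202 CPM with NACET and 228, 203 and 183 CPM with H2O2. The NRF2 ΔC cells gave 234, 200 and 162 CPM untreated, 214, 163 and 155 CPM with NACET and 202, 164 and 149 CPM with H2O2. The replicate 1 library was the highest for ABCC1 in all 6 groups, and the groups compared overlapped. The log2 change of ABCC1 with NACET had a 95% interval from -0.28 to 0.40 in control cells and from -0.59 to 0.24 in NRF2 ΔC cells.

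ABCC5, an exporter of cyclic nucleotides and other organic anions, ranged from 64.4 to 80.9 CPM over the 9 control libraries and from 54.1 to 71.7 CPM over the 9 NRF2 ΔC libraries. Its log2 changes with treatment were under 0.1 in size, with the widest 95% interval from -0.39 to 0.26 for H2O2 in NRF2 ΔC cells. ABCC4, which carries cyclic AMP and prostanoids, measured 55.4, 49 and 51 CPM in untreated control cells and 68.2, 64.2 and 57.6 CPM with NACET. ABCC4 in NRF2 ΔC cells measured 64.1, 56.5 and 54.1 CPM untreated and 82, 71.5 and 64 CPM with NACET. The NACET libraries lay above the untreated ones without overlap in control cells, by 0.28 ± 0.11 (SE) on the log2 scale, and by 0.31 ± 0.13 in NRF2 ΔC cells, where NACET replicate 3 fell just under untreated replicate 1. ABCC4 was higher in 3 of 3 pairs of libraries with the same replicate number in both lines, by 0.17 to 0.39 and 0.24 to 0.36 on the log2 scale. Neither difference passed edgeR's quasi-likelihood test (Benjamini-Hochberg adjusted p = 0.182 and 0.262). Blocking on the replicate number gave edgeR adjusted p-values of 0.000158 for control and 0.00392 for NRF2 ΔC cells, at log2 changes of 0.28 and 0.31 that are under the fold limit. The SEs in these blocked fits were 0.066 and 0.073, so the gap between the 2 p-values does not reflect a gap in spread. In control cells the blocked edgeR fit gave ABCC3 an adjusted p of 8.4e-67. Blocked p-values in control cells therefore do not measure the spread of 3 pairs alone. The difference of the ABCC4 responses between the lines was 0.03 with a 95% interval from -0.34 to 0.39.

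ABCC3 and ABCB6 rose with NACET in control cells. These were 2 of the 6 members tested, against 1.39% of the 13696 genes tested that were called higher (2.75% in either direction). The groups did not overlap for 3 members, ABCC3, ABCB6 and ABCC4, all higher with NACET, against 13.5% of genes that were higher without overlap. ABCC3 measured 14.9, 12.7 and 11.7 CPM untreated and 44.9, 46.4 and 45.5 CPM with NACET. All NACET libraries stood far above the untreated ones, and the log2 fold change was 1.79 ± 0.12 (SE), a 3.46-fold rise (edgeR's quasi-likelihood test, Benjamini-Hochberg adjusted p = 0.00136). ABCC3 stayed a DEG in 6 of 6 fits that each left out 1 library.

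ABCB6, which moves porphyrins across internal membranes and the plasma membrane, measured 45.5, 55.9 and 37.1 CPM in untreated control cells and 77.1, 82.4 and 72.2 CPM with NACET. The lowest treated library lay well above the highest untreated one, and the log2 fold change was 0.74 ± 0.15 (SE) (edgeR's quasi-likelihood test, Benjamini-Hochberg adjusted p = 0.0430). When 1 library was left out the log2 fold change stayed between 0.60 and 0.89, but ABCB6 remained a DEG in 1 of the 6 fits, the one without NACET replicate 3, with adjusted p-values from 0.0499 to 0.200. Replicate 2 had the highest ABCB6 level of its group in both conditions.

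ABCG2, which exports urate, porphyrins and sulfated conjugates, measured 1.19, 2.29 and 1.29 CPM in untreated control cells and 3.13, 3.17 and 2.17 CPM with NACET, from 27 to 62 reads per library. The groups overlapped through the untreated replicate 2, the log2 change was 0.82 ± 0.30 (SE) and it was not a DEG (edgeR's quasi-likelihood test, Benjamini-Hochberg adjusted p = 0.174). Within each cell line, same-number libraries moved together around their group means, and with that number as a block the log2 change of ABCG2 was 0.84 and passed the test (edgeR, adjusted p = 0.000303), in a fit that called 7.49% of genes. The limit given above for blocked p-values in control cells holds here too. ABCG2 was higher in 3 of 3 same-number pairs, by 0.47 to 1.40 on the log2 scale.

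In NRF2 ΔC cells no member was a DEG with NACET in edgeR's quasi-likelihood test, where 1.39% of the 13542 genes tested were called. An unadjusted p under 0.05 was found for 4 of 6 members and for 2516 of the 13542 genes. The groups did not overlap for ABCC3 and ABCG2, higher with NACET, and for ABCB6, lower with NACET, against 24.9% of genes without overlap in either direction. ABCC3 measured 9.27, 10 and 7.22 CPM untreated and 15.3, 14 and 12.5 CPM with NACET, a log2 change of 0.65 ± 0.17 (SE) (edgeR's quasi-likelihood test, Benjamini-Hochberg adjusted p = 0.0987). ABCG2 measured 0.293, 0.391 and 0.602 CPM untreated, from 6 to 13 reads, and 1.67, 1.53 and 0.912 CPM with NACET, a log2 change of 1.66 ± 0.38 (SE) (adjusted p = 0.0728, same edgeR test). ABCG2 entered this test only because its NACET libraries passed the filter on low counts. Its place in the counts above and its calls below rest on that filter. With the replicate number as a block, ABCC3 (adjusted p = 0.000231) and ABCG2 (adjusted p = 0.0018) were both called in edgeR's test, in a fit that called 8.82% of genes, and DESeq2 called both as well (adjusted p = 0.0234 and 0.0264) among 4.42% of genes.

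ABCB6 went the other way in NRF2 ΔC cells. It measured 42.7, 30.9 and 31.2 CPM untreated and 28.5, 21.3 and 23.3 CPM with NACET, and the highest treated library lay below the lowest untreated one. The log2 change was -0.52 ± 0.18 (SE), with a 95% interval from -0.93 to -0.12 (edgeR's quasi-likelihood test, Benjamini-Hochberg adjusted p = 0.169). It was lower in 3 of 3 same-number pairs, by -0.58 to -0.42 on the log2 scale, where control cells gave 0.56 to 0.96. With the replicate block its adjusted p was 0.00016, with a log2 change of -0.52 that is under the fold limit of 0.6.

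**Figure D3:**
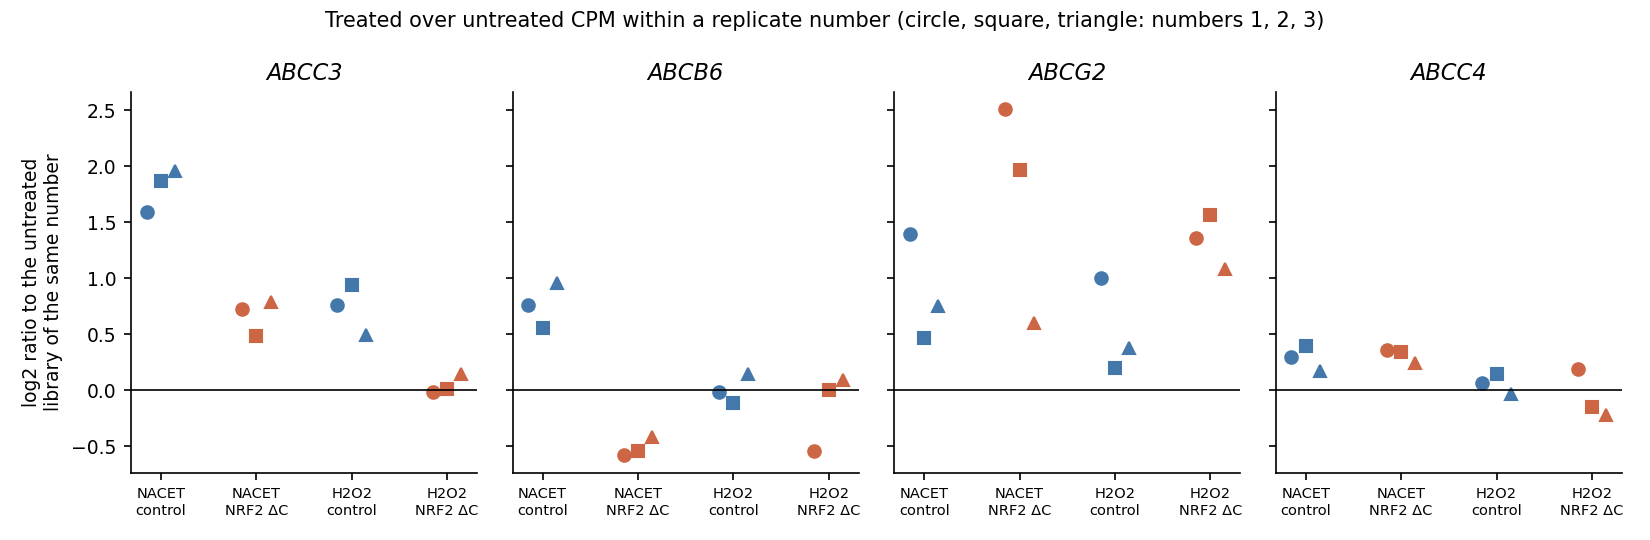
Log2 ratio of treated to untreated CPM within libraries of the same replicate number for ABCC3, ABCB6, ABCG2 and ABCC4, with blue for control and orange for NRF2 ΔC cells, and circles, squares and triangles for numbers 1, 2 and 3. The 3 ABCB6 ratios with NACET lie between 0.56 and 0.96 in control cells and between -0.58 and -0.42 in NRF2 ΔC cells, while the 3 ABCC4 ratios with NACET are above 0 in both lines.

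The difference between the lines in the NACET response was tested as an interaction over 12 libraries. For ABCC3 the response was smaller in NRF2 ΔC cells by -1.14 ± 0.20 (SE) on the log2 scale, with a 95% interval from -1.57 to -0.71, and for ABCB6 it was lower by -1.26 ± 0.25 with an interval from -1.79 to -0.72. Neither passed edgeR's quasi-likelihood test (Benjamini-Hochberg adjusted p = 0.107 and 0.186), in which 0.0643% of the 14002 genes tested were called. With the replicate number blocked within each line both passed edgeR's test (adjusted p = 0.000208 for ABCC3 and 4.68e-06 for ABCB6) among 0.9% of genes called, and DESeq2 also called both (adjusted p = 0.000161 and 0.00175) among 0.2%. For ABCG2 the difference of responses was 0.83 with an interval from -0.26 to 1.93.

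With H2O2 in control cells ABCC3 was a DEG, 1 of the 6 members tested in all comparisons, against 2.96% of the 13691 genes tested that were called higher. ABCC3 measured 25.3, 24.3 and 16.5 CPM with H2O2, above the untreated 11.7 to 14.9 CPM without overlap. Its log2 fold change was 0.77 ± 0.18 (SE) (edgeR's quasi-likelihood test, Benjamini-Hochberg adjusted p = 0.0312), and it remained a DEG in 2 of the 6 fits that left out a library, those without untreated replicate 1 and without H2O2 replicate 3. ABCB6 measured 45.1, 51.8 and 41.1 CPM with H2O2, inside the untreated range of 37.1 to 55.9 CPM, with a log2 change of 0.01 and a 95% interval from -0.34 to 0.37. ABCG2 measured 2.38, 2.63 and 1.67 CPM with H2O2, overlapping the untreated libraries, with a log2 change of 0.51 ± 0.31 (SE) (adjusted p = 0.298, same edgeR test).

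ABCC2 was called higher as well but rested on few reads. It had 6, 5 and 5 reads in the untreated control libraries and 11, 17 and 11 reads with H2O2, a log2 change of 1.36 ± 0.34 (SE) (edgeR's quasi-likelihood test, Benjamini-Hochberg adjusted p = 0.0355). ABCC2 entered this test only because its H2O2 libraries passed the filter on low counts, so it is left out of the count above. It remained a DEG in 0 of 6 fits that left out a library, DESeq2 did not call it, and without the filter the edgeR adjusted p was 0.0609.

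In NRF2 ΔC cells no member was a DEG with H2O2 in edgeR's quasi-likelihood test, while 9.81% of the 13543 genes tested were called. An unadjusted p under 0.05 was found for 4021 of the 13543 genes and for 1 of 6 members. That member was ABCG2, at 0.751, 1.16 and 1.28 CPM with H2O2, all above the untreated 0.293 to 0.602 CPM, with a log2 change of 1.31 ± 0.38 (SE) (edgeR's quasi-likelihood test, Benjamini-Hochberg adjusted p = 0.0573). ABCG2 entered this test only because its H2O2 libraries passed the filter on low counts, so its calls are not counted as results about the members. With the replicate block ABCG2 passed edgeR's test (adjusted p = 0.0012) in a fit that called 18.7% of genes, and without H2O2 replicate 1 it also passed (adjusted p = 0.0238). ABCC3 measured 9.16, 10.1 and 8.01 CPM with H2O2 against 9.27, 10 and 7.22 CPM untreated, a log2 change of 0.04 with a 95% interval from -0.39 to 0.47. The difference of the ABCC3 responses to H2O2 between the lines was -0.71 ± 0.27 (SE) (edgeR's quasi-likelihood test of the interaction, Benjamini-Hochberg adjusted p = 0.732), and -0.69 with the replicate number blocked within each line (adjusted p = 0.0136), where 6.91% of genes were called against 0.0214% without the block. All treated groups of a line were set against the same 3 untreated libraries, so the responses to NACET and H2O2 within a line are not independent.

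**Figure D4:**
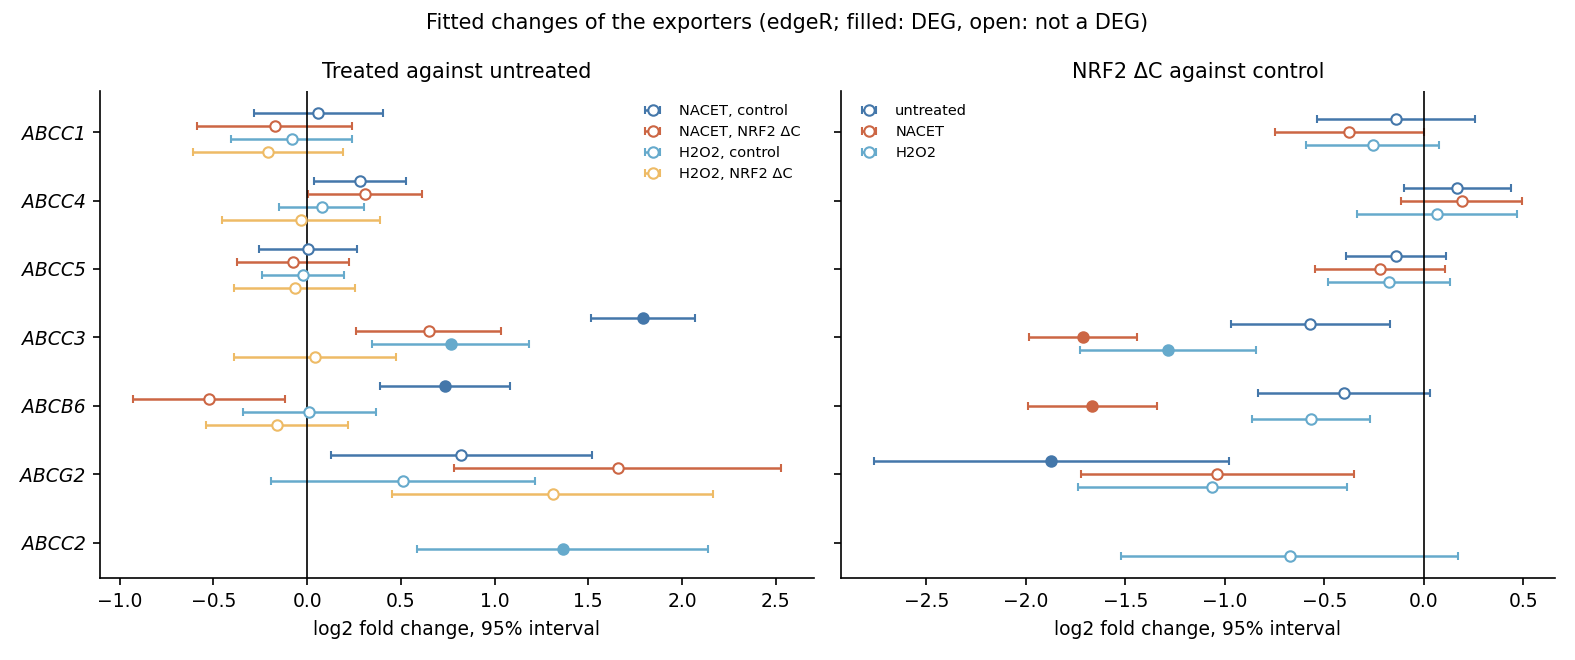
Fitted log2 fold changes with 95% intervals (edgeR) of the 7 exporters that were tested, for treated against untreated cells on the left and NRF2 ΔC against control cells on the right; filled points are DEGs. ABCC3 with NACET in control cells lies at 1.79, ABCB6 has points on both sides of 0 for NACET, and the intervals of ABCC5 hold 0 in all 7 comparisons shown.

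The 2 treatments were also set against each other, at their different doses. In control cells ABCC3 was higher with NACET than with H2O2 by 1.04 ± 0.16 (SE) on the log2 scale and ABCB6 by 0.74 ± 0.11 (edgeR's quasi-likelihood test, Benjamini-Hochberg adjusted p = 0.0115 and 0.0110), 2 of the 6 members tested in all comparisons against 2.25% of genes called higher. Each remained a DEG in 4 of 6 fits that left out a library. Without NACET replicate 2 neither was called, without H2O2 replicate 1 ABCB6 was not, and without H2O2 replicate 2 ABCC3 was not. In NRF2 ΔC cells ABCC3 was higher with NACET than with H2O2 by 0.63 ± 0.16 (SE) (adjusted p = 0.0473, same edgeR test), the only DEG among 6 members against 5.09% of genes called higher, and it remained one in 0 of 6 such fits. ABCB6 there was lower with NACET by -0.35 ± 0.15 (SE), with no overlap and an adjusted p of 0.185 in the same edgeR test.

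Between the cell lines, the exporters that differed were lower in NRF2 ΔC cells. Untreated, no member but ABCG2 was a DEG, where 3.12% of the 13710 genes tested were called lower. ABCG2 passed the filter on low counts here only through the control libraries, so its call is not counted as a result about the members. Its 3 NRF2 ΔC libraries, at 0.293 to 0.602 CPM, lay below the 3 control libraries, at 1.19 to 2.29 CPM, and the log2 difference was -1.87 ± 0.39 (SE) (edgeR's quasi-likelihood test, Benjamini-Hochberg adjusted p = 0.0332). The call was kept in 3 of 6 fits that left out a library and lost without control replicate 2, NRF2 ΔC replicate 2 or NRF2 ΔC replicate 3. ABCC3 at 7.22 to 10 CPM also lay below the control range of 11.7 to 14.9 CPM, by -0.57 ± 0.18 (SE) (adjusted p = 0.155, same edgeR test). Of the 6 members, ABCC3 and, under the limit given, ABCG2 were lower without overlap, against 11.2% of all genes.

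Under NACET the DEGs between the lines were ABCC3 and ABCB6, 2 of 6 members where 3.86% of the 13627 genes tested were called lower. ABCC3 stood at 44.9 to 46.4 CPM in control and 12.5 to 15.3 CPM in NRF2 ΔC cells, a log2 difference of -1.71 ± 0.12 (SE) (edgeR's quasi-likelihood test, Benjamini-Hochberg adjusted p = 0.000182). ABCB6 stood at 72.2 to 82.4 CPM and 21.3 to 28.5 CPM, a log2 difference of -1.67 ± 0.14 (SE) (adjusted p = 0.000539, same edgeR test). Both calls were kept in 6 of 6 fits that left out a library. ABCG2 was lower without overlap as well, by -1.04 ± 0.30 (SE), with an adjusted p of 0.0992 in the same edgeR test. DESeq2 called it (log2 difference -1.03, adjusted p = 0.0495) among 6.15% of genes, and edgeR called it with the replicate block (adjusted p = 0.0184) among 7.47%. The replicate number was not taken to pair libraries between the lines, so that blocked fit is a refit only.

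Under H2O2, ABCC3 was a DEG and the other 5 of the 6 members tested in all comparisons were not, where 4.2% of the 13580 genes tested were called lower, at 16.5 to 25.3 CPM in control and 8.01 to 10.1 CPM in NRF2 ΔC cells. The log2 difference was -1.29 ± 0.20 (SE) (edgeR's quasi-likelihood test, Benjamini-Hochberg adjusted p = 0.00495) and was kept in 6 of 6 fits that left out a library. ABCB6 differed by -0.57 ± 0.13 (SE), with an adjusted p of 0.0368 in the same edgeR test that passes while its size misses the fold limit. ABCG2 differed by -1.06 ± 0.30 (SE) without overlap (adjusted p = 0.0740, same edgeR test). ABCC4 was higher in NRF2 ΔC cells by 0.07 to 0.19 on the log2 scale over the 3 conditions, always with overlap.

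The 36 other ABC transporters form a list that holds lipid, peptide and mitochondrial transporters. With NACET in control cells 0 of 19 tested were DEGs in edgeR's test, with a median log2 change of -0.07 against -0.01 over all genes. An unadjusted p under 0.05 was found for 6 of the 19 and for 2854 of all 13696 genes tested. With H2O2, 2 of 20 were called higher in control cells against 2.96% of all genes, the keratinocyte lipid transporter ABCA12 (1.84 ± 0.37 SE) and the cholesterol exporter ABCA1 (0.88 ± 0.13). Of 18 tested in NRF2 ΔC cells, 5 were called higher with H2O2 against 4.26% of all genes, with the largest changes in ABCA12 (2.51), the lysosomal peptide transporter ABCB9 (1.10) and the antigen peptide transporter TAP1 (1.07), and 1 was called lower, ABCA2 (-0.64), against 5.55%. ABCA12 had 13, 4 and 9 reads in untreated control libraries and 18, 5 and 4 in untreated NRF2 ΔC libraries. It passed the filter on low counts only through the H2O2 libraries, so its calls are no result about the list. The counts of 2 of 20 and 5 of 18 called higher include ABCA12. Between the lines ABCA8 was lower in NRF2 ΔC cells in all 3 conditions, by -5.12 ± 0.41, -5.99 ± 0.43 and -5.49 ± 0.50 (SE) on the log2 scale, the only gene of 19 called when untreated and of 19 with NACET. Its NRF2 ΔC libraries held 4, 5 and 5 reads untreated, 3, 1 and 1 with NACET and 0, 1 and 4 with H2O2. ABCA8 passed the filter on low counts only through the control libraries, so its calls are no result about the list. The size of these differences is also imprecise. With H2O2, ABCB5 was also lower (-1.58) and ABCC9 higher (0.93), of 20 tested. The shares of all genes called lower were those given above, and 0.729, 0.895 and 1.41% were called higher.

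Glutathione and the conjugates made with it are cargo of the ABCC exporters. Of 32 genes for glutathione supply and conjugation, 25 were tested with NACET in control cells and 5 were called higher against 1.39% of all genes, led by the cystine carrier SLC7A11 (log2 change 2.67 ± 0.17 SE), the glutamate-cysteine ligase modifier GCLM (2.04 ± 0.18), glutathione reductase GSR (1.07 ± 0.11) and the glutathione transferase MGST1 (0.78 ± 0.13). The median over the list was 0.16 against -0.01 over all genes. The same treatment of NRF2 ΔC cells left 0 of 25 as DEGs with NACET in edgeR's test. An unadjusted p under 0.05 was found for 7 of the 25, against 2516 of all 13542 genes tested. With H2O2, 5 of 25 were called higher in control cells (2.96% of all genes) and 3 of 26 in NRF2 ΔC cells (4.26%), in both led by CHAC1, which degrades glutathione (3.69 ± 0.26 and 4.99 ± 0.44), and SLC7A11 (2.62 ± 0.23 and 2.53 ± 0.24). Between the lines, 4, 8 and 6 genes of the list were called lower in NRF2 ΔC cells when untreated, with NACET and with H2O2, against 3.12, 3.86 and 4.2% of all genes. Called lower each time were the glutathione transferases GSTM4 (log2 differences -1.43, -1.82 and -1.44), MGST1 (-1.18, -1.76 and -1.71) and GSTM2 (-0.99, -1.20 and -1.25), and SLC7A11 (-1.05, -2.95 and -1.13). The 1 gene of the list called higher was CHAC1 with H2O2 (1.60).

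ABCB6 carries porphyrins, so 21 genes of the porphyrin and heme pathway were set beside it. With NACET in control cells 3 of 21 were called higher against 1.39% of all genes, namely heme oxygenase HMOX1 (log2 change 2.25 ± 0.23 SE), the heme carrier SLC48A1 (1.26 ± 0.12) and ferrochelatase FECH (0.73 ± 0.10), which inserts iron into protoporphyrin. In NRF2 ΔC cells 0 of 20 were DEGs with NACET in edgeR's test. An unadjusted p under 0.05 was found for 3 of the 20, against 2516 of all 13542 genes tested. With NACET, HMOX1 (-2.08), SLC48A1 (-1.47) and FECH (-1.20) were lower in NRF2 ΔC than in control cells, 3 of 21 against 3.86% of all genes. With H2O2, FECH and SLC48A1 were, 2 of 21 against 4.2%, and untreated 0 of 21 were DEGs in edgeR's test. In the untreated comparison 4 of the 21 had an unadjusted p under 0.05, against 1879 of all 13710 genes tested. With H2O2 against untreated cells, 3 of 21 were called higher and 1 lower in control cells, where 2.96% of all genes were called higher and 3.37% lower, and 3 of 20 higher and 2 lower in NRF2 ΔC cells, where the shares were 4.26 and 5.55%. HMOX1 had the largest change in both lines (2.80 ± 0.25 and 1.96 ± 0.27 SE), ALAS1, the first enzyme of the pathway, rose in both (0.75 and 0.70) and ALAD, the next enzyme, fell in both (-0.67 and -0.82). SLC48A1 was called in control cells alone (0.94), and the mitochondrial glycine carrier SLC25A38 (0.70) and CPOX (-0.60) in NRF2 ΔC cells alone, but edgeR's interaction test called none of these 3 differences between the lines (adjusted p = 0.740, 0.919 and 0.923). ABCB6 was a DEG with H2O2 in neither line.

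Of 25 carriers that bring drugs and organic ions into cells, 10 were tested with NACET in control cells and 2 were called higher against 1.39% of all genes, SLCO4A1 (log2 change 1.27 ± 0.19 SE) and SLC22A3 (0.90 ± 0.13). SLC22A3 was also called in NRF2 ΔC cells (0.88 ± 0.16), 1 of 13 against 0.458%. With H2O2, 0 of 10 were DEGs in control cells in edgeR's test (4 had an unadjusted p under 0.05, against 4208 of all 13691 genes tested). Of 13 in NRF2 ΔC cells, SLCO5A1 was called higher (1.89 ± 0.43) against 4.26% of all genes. SLCO3A1 was called lower there (-0.67 ± 0.18) against 5.55%. SLCO4A1 was higher in NRF2 ΔC than in control cells when untreated (1.53 ± 0.32) and with NACET (1.33 ± 0.20), and SLCO5A1 with H2O2 (2.18 ± 0.49). These were 1 of 11, 12 and 11 carriers tested, against 0.729, 0.895 and 1.41% of all genes called higher. SLCO5A1 had 3, 8 and 8 reads in untreated NRF2 ΔC cells and 1, 8 and 5 in control cells with H2O2. It passed the filter on low counts only through the NRF2 ΔC libraries with H2O2, so its calls are no result about the carriers. Of 28 regulators and membrane anchors of exporters, 25 were tested with NACET in control cells and 2 were called higher against 1.39% of all genes, MAFG, the small Maf partner of NRF2 (0.96 ± 0.12), and PPARG (0.74 ± 0.16). With NACET 0 of 25 were DEGs in NRF2 ΔC cells in edgeR's test (6 had an unadjusted p under 0.05, against 2516 of all 13542 genes tested). MAFG rose with H2O2 in both lines (0.84 ± 0.11 and 0.77 ± 0.17), and the anchor SLC9A3R1 was called lower in control cells (-0.61 ± 0.10). AHRR, the repressor of the aryl hydrocarbon receptor, was higher in NRF2 ΔC cells in all 3 conditions (1.61, 1.40 and 1.62), and those called lower there were MAFG with NACET (-0.66) and EPAS1 with H2O2 (-0.85).

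For each expressed member, the genes with the most similar profile were taken by Pearson's r of log2(CPM + 1) over the 18 libraries among 11010 genes with a mean of at least 5 CPM. The libraries share groups and replicate numbers, so r is a description. ABCC3 was most like TRIM16, an E3 ligase (r = 0.961), GCLC, the catalytic subunit of glutamate-cysteine ligase (r = 0.945), and NLN (r = 0.942). ABCB6 was most like TSKU (r = 0.955), GSTM3, a glutathione transferase (r = 0.916), and FECH (r = 0.911). ABCG2 was most like NUDT9 (r = 0.910), POPDC3 (r = 0.878) and GCLC (r = 0.871). Among the members that were never DEGs, ABCC1 had CLSTN2 (r = 0.952), COL4A1 (r = 0.949) and PPP1R9A (r = 0.944), ABCC5 had PPARA (r = 0.953), WWC2 (r = 0.949) and ZFP106 (r = 0.938), and ABCC4 had UGGT2 (r = 0.927), EXTL3 (r = 0.898) and GPR180 (r = 0.894).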

How the data were processed

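Per the labels and the study's methods, the authors made TruSeq libraries of polyadenylated RNA, mapped single-end reads to hg19 with TopHat2 2.1.0 and counted them per gene with HTSeq 0.11.2; the gene annotation is not given in the sources used here. The deposited values are whole-number counts per gene symbol, with no normalization. The 5 summary lines of each file, 25.8 to 27.9% of a library, entered neither library sizes nor tests, and 4060 symbols had no count. No column was left unmatched to a sample. Counting error alone did not account for the difference in any of the 18 replicate pairs, with a chi-square of at least 9.98 per degree of freedom.

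Counts were analysed with edgeR 4.0.16 in R 4.3.3: filterByExpr, TMM and the quasi-likelihood test, adjusted over all genes by Benjamini-Hochberg, on the 6 libraries of each comparison or the 12 of an interaction, called on the adjusted p alone. CPM are TMM-normalized, and intervals are 95%. The script was tested on simulated data. Alternatives were DESeq2 1.42.0, RLE size factors, no filter, no fold limit, 1 fit of all 18 libraries, the replicate number as a block, and leaving out each library. Deviations from group means correlated by 0.418 to 0.825 in all 18 same-number pairs within a line, so the number was taken to pair libraries there, as a reading of the data, since the labels do not say what it marks; between lines the correlations ran from -0.281 to 0.715.

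The named genes are the 8 exporters, NFE2L2, NQO1, up to 4 called genes of each list per comparison, those with the largest changes, and the 3 genes most like each expressed exporter. Marker genes, GSTM2 and other genes named beyond these were chosen after their values were seen. The members and lists were chosen with earlier results of these data known, so none is independent support for a pattern. Protein sequences were not used here.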

Additional observations from a re-analysis of the deposited data

Results flagged for a closer look

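The response of ABCB6 to NACET ran in opposite directions in the cell lines: all 3 treated control libraries lay above the untreated ones and all 3 treated NRF2 ΔC libraries below them, and the difference of the responses was -1.26 on the log2 scale. It did not pass edgeR's interaction test without a replicate block (adjusted p = 0.186) and passed with it (adjusted p = 4.68e-06). The response of ABCC3 to NACET was smaller in NRF2 ΔC than in control cells by -1.14 on the log2 scale with the replicate number blocked within each line (edgeR adjusted p = 0.000208), and its response to H2O2 by -0.69 (adjusted p = 0.0136). Neither ABCC3 difference passed edgeR's interaction test without the block (adjusted p = 0.107 and 0.732). For H2O2 the blocked test called 6.91% of genes against 0.0214% without the block. Groups of 3 libraries are too small for a test of single outlying libraries, so none was made.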

How the results depend on the processing

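Each log2 fold change of a tested member was refitted under the alternatives. Apart from fits that left out a library, 379 refitted values kept their direction and their side of the limits, 19 gained a call, 4 lost one and 5 changed sign, all 5 for ABCC5: -0.0077 with NACET in control cells in 1 fit of all 18 libraries, and, for NACET against H2O2 in NRF2 ΔC cells, -0.0001 with DESeq2, -0.0002 with RLE size factors, -0.0028 with no filter and -0.0156 in 1 fit of all 18 libraries, against 0.01 as reported. With 1 library left out, 428 kept theirs, 2 gained a call, 28 lost one and 40 changed sign, with no called value among the 40. Those fits gave log2 changes for ABCC1 from -0.039 to 0.21 (NACET, control), -0.18 to 0.066 (H2O2, control), -0.29 to 0.0069 (untreated lines), -0.12 to 0.19 (NACET against H2O2, NRF2 ΔC) and -0.25 to 0.040 (interaction, H2O2). For ABCC5 they ran from -0.091 to 0.075 (NACET, control), -0.078 to 0.035 (H2O2, control), -0.16 to 0.031 (H2O2, NRF2 ΔC), -0.063 to 0.10 and -0.12 to 0.12 (NACET against H2O2, control and NRF2 ΔC), and -0.19 to 0.022 and -0.13 to 0.061 (interactions, NACET and H2O2). For ABCC4 they ran from -0.25 to 0.10 (H2O2, NRF2 ΔC), -0.16 to 0.20 (lines under H2O2), and -0.063 to 0.12 and -0.32 to 0.033 (interactions, NACET and H2O2). For ABCB6 they ran from -0.13 to 0.17 and -0.25 to 0.034 (H2O2, control and NRF2 ΔC) and -0.32 to 0.025 (interaction, H2O2), and for ABCC3 from -0.077 to 0.14 (H2O2, NRF2 ΔC).

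The number of exporters called moved as follows. For NACET in control cells it was 2 as reported and 3 with the replicate block (with ABCG2), and between the lines under NACET it was 2, and 3 with DESeq2 or the replicate block (with ABCG2). For H2O2 in control cells it was 2 as reported and 1 with DESeq2 or no filter. For NACET in NRF2 ΔC cells it was 0 as reported and 2 with DESeq2, 1 fit of all 18 libraries or the replicate block. For H2O2 in NRF2 ΔC cells it was 0, and 1 in 1 fit of all 18 libraries or with the replicate block. Between the lines under H2O2 it was 1, and 2 in 1 fit of all 18 libraries (with ABCG2), with the replicate block (with ABCG2) or with no fold limit (with ABCB6). For NACET against H2O2 in NRF2 ΔC cells it was 1, and 0 with no filter or in 1 fit of all 18 libraries. For the interaction with NACET it was 0, and 2 with DESeq2 or the replicate block, and for the interaction with H2O2 it was 0, and 1 with the replicate block. Between the lines, the correlations ran from 0.495 to 0.715 for numbers 1 and 3 and from -0.281 to -0.028 for number 2. The number was therefore not taken to pair libraries between the lines. The block there is a refit only: it also called ABCG2 under NACET (log2 difference -1.06).

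With 1 library left out the number called ranged from 1 to 2 for NACET and from 0 to 1 for H2O2 in control cells, was 0 throughout for NACET and from 0 to 1 for H2O2 in NRF2 ΔC cells, from 0 to 1 between the untreated lines, 2 throughout between them under NACET and from 1 to 2 under H2O2, from 0 to 2 for NACET against H2O2 in control cells and 0 throughout in NRF2 ΔC cells, and 0 throughout for both interactions. By CPM with no length ABCC5 took place 2 and ABCB6 place 4 in the order of levels; the canonical transcript, an alternative chosen after the data were seen, gave ABCC4 place 4 and ABCC5 place 3. The low read counts of ABCG2, ABCC2 and ABCB1 limit the precision of their values.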

Other observations

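NUDT9, the gene most like ABCG2 over the 18 libraries, lies 0.63 Mb from it on chromosome 4, and UGGT2 and GPR180, among the 3 most like ABCC4, lie 0.5 and 0.39 Mb from it on chromosome 13, which holds 1.8% of the 11010 candidate genes. After these positions were seen, the genes within 2 Mb of each expressed exporter were listed. Around ABCG2, 17 of 18 tested neighbours were lower in NRF2 ΔC than in control cells when untreated, 18 of 19 with NACET and 15 of 16 with H2O2, with median log2 differences of -0.25, -0.30 and -0.37. Of all genes tested, 47.5, 50.3 and 49.2% were lower. ABCG2 itself differed by -1.87, -1.04 and -1.06. With NACET in control cells, 8 of the 18 neighbours of ABCG2 were lower, with a median of 0.05.

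Around ABCB6, 21 of 36 neighbours were lower in NRF2 ΔC cells when untreated and 23 of 36 with NACET, and around ABCC3 the counts were 22 of 34 and 16 of 31. With H2O2 the lower neighbours were 14 of 34 around ABCB6 and 14 of 30 around ABCC3. Around ABCC4, 6 of 8 neighbours were higher with NACET in both control and NRF2 ΔC cells, with median log2 changes of 0.20 and 0.23 beside 0.28 and 0.31 for ABCC4 itself. Neighbouring genes are not independent replicates, no test was made, and the cause of these patterns was not tested.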
